A study of Mus musculus with 5 samples.

Results

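The 9 genes followed here belong to the sarcomeric Z-disc of mouse hindlimb muscle: the 2 sarcomeric alpha-actinins Actn2 and Actn3, the 3 calsarcins Myoz1, Myoz2 and Myoz3, the PDZ-LIM genes Ldb3 and Pdlim3, myotilin (Myot) and telethonin (Tcap). They were chosen by name as components of this structure, without a cut on their measured values but with earlier results of these data known. They are 9 of the 32285 gene rows of each RNA table. RNA and open chromatin were profiled in the same nuclei by 10x Multiome, a droplet assay that gives 1 RNA library and 1 ATAC library per preparation. There were 5 preparations of hindlimb skeletal muscle, each 1 pool of frozen muscle: wild type (WT) C57bl6n at embryonic stages E14.5 (from 56 hindlimbs) and E18.5 (from 14 hindlimbs), 5 days after birth (P5, from 8 hindlimbs) and as adults (from 4 hindlimbs, animals of both sexes by the study's methods), and Cacna1s-/- C57bl6n at E18.5 (KO, 26 hindlimbs). The WT series addresses how muscle genes are deployed as fibers mature, and the KO asks what changes when Cacna1s, which encodes the voltage-sensing subunit of the muscle L-type calcium channel Cav1.1, is lost from every cell. Each group is 1 library, so no comparison below has a replicate check and none carries a test. The intervals given are exact 95% intervals that cover counting error only.

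The Z-disc is the border of the sarcomere, where alpha-actinin dimers crosslink the ends of actin filaments from neighbouring sarcomeres. Calsarcins bind alpha-actinin and the phosphatase calcineurin, Ldb3 (also called Cypher or ZASP) and Pdlim3 (ALP) bind alpha-actinin through their PDZ domains, myotilin binds alpha-actinin and filamin, and telethonin caps the amino-terminal end of titin. Actn3 and Myoz1 are known as genes of fast fibers and Myoz2 as a gene of slow fibers and heart, while Actn2 is also expressed in slow fibers.

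Myonuclei, the nuclei of muscle fibers, were taken as those in which Ttn, Neb, Trdn and Ryr1 together made up at least 1.5% of the unique molecular identifiers (UMIs, 1 per captured RNA molecule), or 4% in the adult. None of the 9 genes enters this rule. It kept 1809, 1563, 1764, 4387 and 981 myonuclei in the E14.5, E18.5, P5, adult and KO libraries, the order used for all lists of 5 values, or 10504 of 21154 nuclei that passed the quality filters. Median depth was 4870, 6971, 6414, 3385 and 10200 UMIs per myonucleus, and the libraries held 21394846 to 49913899 UMIs and 23592784 to 48510096 ATAC counts. RNA levels below are in CPM, the UMIs of a gene per 1000000 UMIs of the myonuclei of that library. The 18 markers of myonuclei, all detected in every library, summed to 31155, 52638, 68051, 110374 and 43230 CPM in myonuclei and to 835 to 4557 CPM in the other nuclei. The cut is a threshold on a continuous share, and 528, 203, 135, 34 and 237 nuclei lay within 0.5 percentage points of it. Cacna1s itself had 211, 189, 346 and 326 CPM in the myonuclei of the WT series and 0.731 CPM, 8 UMIs, in the KO myonuclei. Libraries shared between 17 and 47 nucleus barcodes pairwise.

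All 9 genes were read mostly in myonuclei. The other nuclei include some muscle nuclei below the cut: 228, 97, 15, 34 and 124 of them lay in clusters with myonuclear markers, and at E14.5 these gave 1209 of the 1398 Actn2 UMIs of the other nuclei. A gene was called higher where its CPM in myonuclei was at least 2-fold that in the other nuclei of the same library. At E18.5 all 9 genes were, by 20.8-fold for Tcap to 80.7-fold for Myoz3, where 11.8% of all genes were called. At P5 the 9 genes were higher by 19.7-fold for Tcap to 109-fold for Myot, with 11.9% of all genes called. In the adult they were higher by 5.01-fold for Myoz2 to 23.1-fold for Tcap, with 14.0% called, and in the KO by 11.9-fold for Tcap to 26.4-fold for Myot, with 10.1% called. At E14.5 8 of the 9 were called, where 9.82% of all genes were. The exception was Myoz3, with 6 UMIs in all E14.5 myonuclei and a ratio of 1.55 (0.393 to 6.41). A lower level in a pool of nuclei can mean fewer nuclei that use a gene or less RNA in each, and the sums cannot tell these apart.

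3 stretches of sequence are shown because the chromatin there differed between myonuclei of different dominant myosin, as described further on. They are the 200 bases upstream of the RefSeq start sites of Actn2 (chr13:12340783-12340982, minus strand) and of Myoz2 (chr3:123035038-123035237, minus strand) from RefSeq's GRCm38 promoter table, and the middle 300 bases of an open-chromatin region inside an intron of Actn2 (chr13:12337840-12338139, minus strand), read from the GRCm38 genome. Each is written 5′ to 3′ on the strand of its gene. Capitals mark E-boxes (CANNTG, bound by the myogenic bHLH factors) and MCAT motifs (CATTCC or its reverse complement GGAATG, bound by TEAD factors).
Actn2 promoter: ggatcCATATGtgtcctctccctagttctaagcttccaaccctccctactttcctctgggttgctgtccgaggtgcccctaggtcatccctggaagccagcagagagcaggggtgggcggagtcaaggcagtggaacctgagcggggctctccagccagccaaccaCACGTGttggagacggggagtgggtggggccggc
Myoz2 promoter: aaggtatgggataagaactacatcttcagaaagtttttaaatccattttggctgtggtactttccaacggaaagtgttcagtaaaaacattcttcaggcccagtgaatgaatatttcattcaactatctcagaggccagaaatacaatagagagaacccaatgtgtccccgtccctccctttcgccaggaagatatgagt
Actn2 intron: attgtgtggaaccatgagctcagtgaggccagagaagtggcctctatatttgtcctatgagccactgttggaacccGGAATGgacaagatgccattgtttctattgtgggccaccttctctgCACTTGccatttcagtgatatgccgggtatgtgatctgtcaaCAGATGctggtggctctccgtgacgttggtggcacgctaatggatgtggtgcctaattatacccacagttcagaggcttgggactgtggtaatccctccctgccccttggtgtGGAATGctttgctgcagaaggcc
Each sequence was searched on both strands for these motifs and for the MEF2 and CArG motifs, and no matches overlapped. The Actn2 promoter held 2 E-boxes, and the Actn2 intron stretch 2 E-boxes and 2 MCAT motifs. The Myoz2 promoter held no match to any of the 4 motifs. Among 27025 promoters of 200 bases, 58.9% held an E-box, 10.6% an MCAT, 2.46% a MEF2 and 1.08% a CArG motif, and among 136345 regions of 300 bases these shares were 83.6%, 19.2%, 5.41% and 1.48%. A match is a run of letters and was not tested as a binding site.

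The alpha-actinins followed opposite courses after birth. Actn2 (chr13:12269426-12340760, minus strand, mm10) had 1346, 1460 and 1653 CPM at E14.5, E18.5 and P5 and 507 CPM in the adult. Its adult level was 3.26-fold below P5 (3.18 to 3.34), and the earlier steps were small, with ratios of 1.09 and 1.13. Actn3 (chr19:4861216-4877909, minus strand), the fast-fiber alpha-actinin, had 16.6, 68.6, 208 and 461.5 CPM. Each stage was therefore above the one before, by 4.13-fold (3.48 to 4.91), 3.03-fold (2.80 to 3.27) and 2.22-fold (2.13 to 2.32). With a 4% cut in every library, Actn3 remained higher at P5 than at E18.5 and in the adult than at P5, but by log2 ratios of 0.93 and 0.90, under 2-fold. The Actn3 share of Actn2 plus Actn3 UMIs was 1.22%, 4.49%, 11.2% and 47.7% across the WT stages. The genes differ in length, so the share follows 1 pair across libraries and is not a ratio of transcripts.

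**Figure D1:**
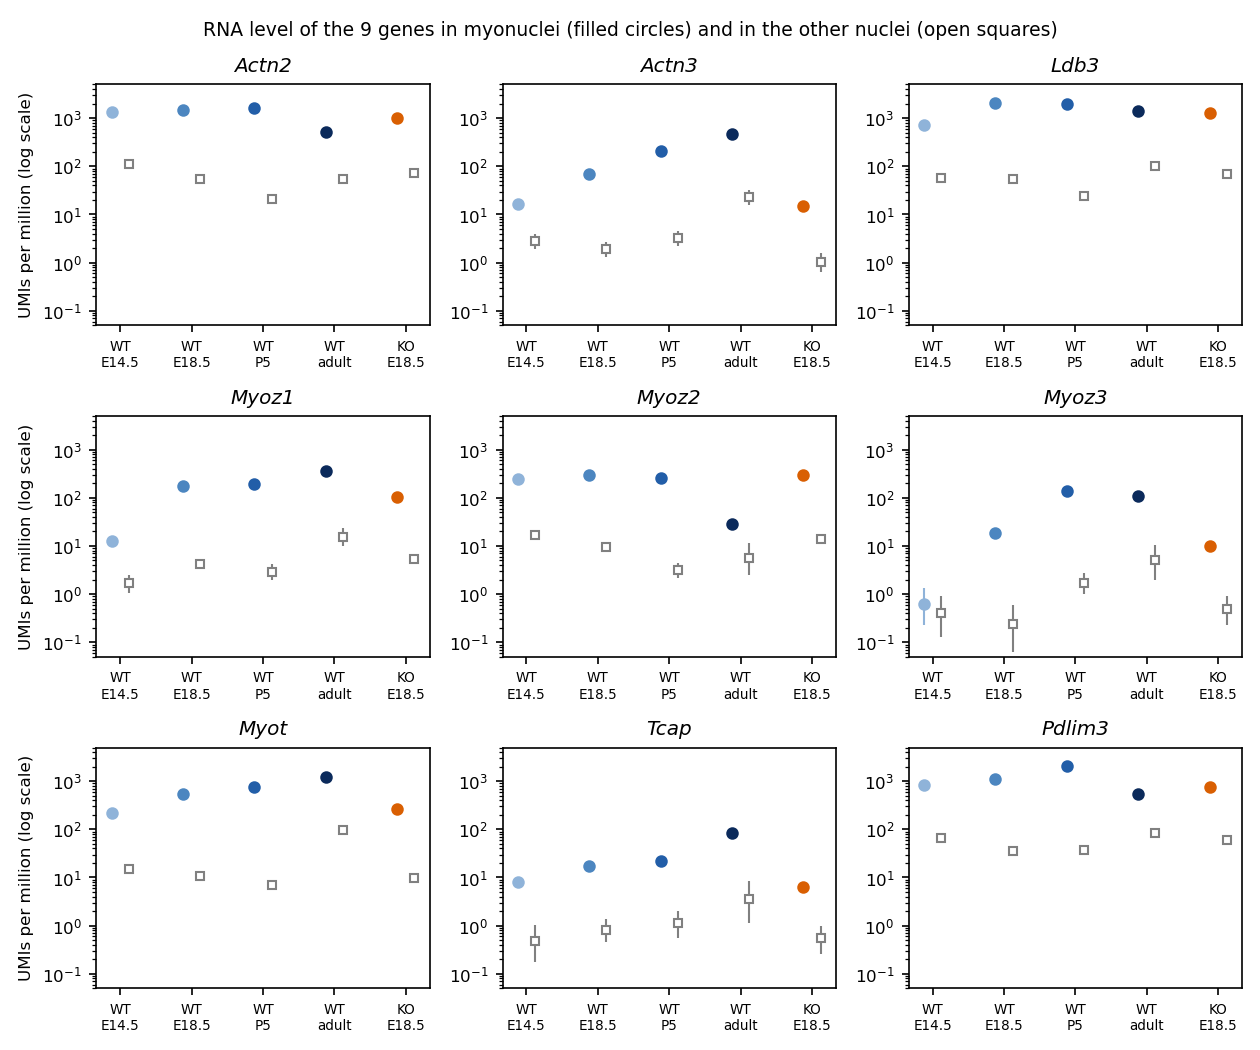
RNA level of each gene in CPM on a log axis, by library, in myonuclei (filled circles, KO in orange) and in all other kept nuclei (open squares), with exact 95% Poisson intervals. Actn3 goes from 16.6 at E14.5 to 461.5 in the adult, while Myoz2 stays between 251 and 299 except in the adult, at 28.6.

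The share of nuclei in which a gene was seen moved with these sums. After each nucleus was thinned to 1000 UMIs, Actn3 was detected in 1.02%, 6.55%, 17.97% and 34.2% of myonuclei along the WT series, and in 7.13%, 25.7%, 56.2% and 63.9% without thinning. In the other nuclei, whose median depths were 3665, 5474, 4373 and 1231 UMIs, the thinned share was 0.240%, 0.188%, 0.421% and 1.37%. Actn2 was detected in 68.7%, 72.6% and 62.3% of thinned myonuclei before adulthood and in 21.3% of adult myonuclei, where the unthinned shares were 96.8%, 98.5%, 86.9% and 33.1%. The other nuclei gave 4.77%, 3.42%, 1.32% and 3.42% for Actn2 after thinning.

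Among the calsarcins, Myoz2 gave most of the UMIs early and Myoz1 late. Myoz2 (chr3:123006206-123035015, minus strand, overlapping the miRNA gene Gm22066 on the same strand) had 251, 298 and 258 CPM before adulthood and 28.6 CPM in the adult, 9.02-fold below P5 (8.24 to 9.88). Myoz1 (chr14:20649107-20656540, minus strand) had 12.5, 173, 194 and 363 CPM, with its largest fold step, 13.8-fold (11.5 to 16.7), between E14.5 and E18.5. Myoz3 (chr18:60573750-60591788, minus strand) had 0.616, 18.9, 138 and 109 CPM. It was 30.7-fold higher at E18.5 than at E14.5 (13.9 to 84.6), from 6 UMIs at E14.5, and 7.27-fold higher at P5 than at E18.5 (6.34 to 8.36). Of the UMIs of the 3 calsarcins together, Myoz2 took 95.03%, 60.8%, 43.8% and 5.72% across the WT stages, Myoz1 4.74%, 35.3%, 32.9% and 72.4%, and Myoz3 0.233%, 3.87%, 23.3% and 21.9%.

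**Figure D2:**
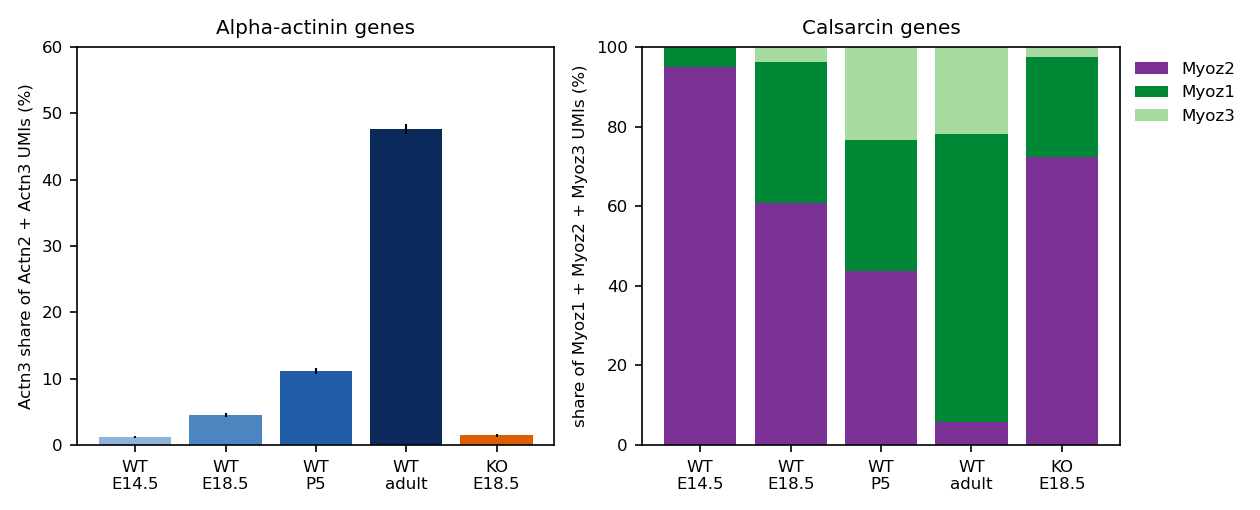
Left, Actn3 as a percent of Actn2 plus Actn3 UMIs in the myonuclei of each library, with exact 95% binomial intervals. Right, the 3 calsarcins as percents of their summed UMIs. Actn3 reaches 47.7% in the adult against 1.45% in the KO, and Myoz2 goes from 95.03% at E14.5 to 5.72% in the adult.

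The PDZ-LIM genes differed in timing. Ldb3 (chr14:34526603-34588682, minus strand) had 719, 2072, 1998 and 1440 CPM in the WT series, so its main step, 2.88-fold (2.81 to 2.96), came between E14.5 and E18.5. Pdlim3 (chr8:45885461-45919548, plus strand) had 831, 1129, 2091 and 549 CPM, with a peak at P5 and an adult level 3.81-fold below it (3.73 to 3.90). Pdlim3 was 1.85-fold higher at P5 than at E18.5 when scaled to total UMIs, and past 2-fold, at a log2 ratio of 1.23, with median-ratio size factors.

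Myotilin and telethonin were higher at each successive WT stage. Myot (chr18:44334074-44355724, plus strand) had 216, 540, 768 and 1211 CPM, with ratios of 2.50, 1.42 and 1.58 between successive stages. Tcap (chr11:98383811-98384953, plus strand), the shortest of the genes at 1.14 kb, had 8.01, 17.1, 21.9 and 82.6 CPM, and its adult level was 3.78-fold that of P5 (3.32 to 4.31). Their profiles over the 5 libraries were near each other, at a Euclidean distance of 0.851 between centred log2(CPM + 5) values, and only Actn2 and Pdlim3, at 0.844, were closer among the 36 pairs of the 9 genes. Actn3 and Myoz2 were the farthest apart, at 6.29.

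Levels of different genes are given here per length, and their order depends on the length used. Whether UMIs scale with either length was not tested. Per kb of gene span, since intronic reads were counted, Pdlim3 at 24.4 CPM per kb and Actn2 at 18.9 ranked highest at E14.5. In the adult the order was Tcap 72.3, Myot 55.9, Myoz1 48.8, Actn3 27.6, Ldb3 23.2, Pdlim3 16.1, Actn2 7.11, Myoz3 6.07 and Myoz2 0.994 CPM per kb. Per kb of exon the adult order began with Myot and Ldb3, at 548 and 236 CPM per kb, and Tcap, with almost no intron, came 7th.

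Counted over the 9 genes, 6 were at least 2-fold higher at E18.5 than at E14.5 (Actn3, Ldb3, Myoz1, Myoz3, Myot and Tcap) and none was 2-fold lower, where 15.6% of the genes tested were higher and 8.93% lower. Their median log2 ratio was 1.32 against 0.16 over all genes. From E18.5 to P5, Actn3 and Myoz3 were at least 2-fold higher and none lower, where 6.98% of all genes were higher and 2441 of 13203 lower, or 25.5% past 2-fold in either direction, and the median log2 ratio was 0.36 against -0.33 over all genes. From P5 to adult, Actn3 and Tcap were higher and Actn2, Myoz2 and Pdlim3 lower, with 8.13% of all genes higher and 30.4% lower, and the medians were -0.33 and -0.34. Median-ratio size factors moved the median of all genes between adult and P5 to 0.29 and the split of all genes to 21.1% higher and 21.2% lower. Under them Myoz1 and Myot joined the higher genes, for 4 higher and 3 lower. Marker sums of other cell types in the myonuclei also differed between stages: the 9 mesenchymal markers summed to 3070, 3147, 1572 and 45.9 CPM in myonuclei from E14.5 to adult, and all 9 had at least 1 UMI in each library. Dclk1 alone gave 2697 CPM of this sum at E14.5 and 1903 CPM at E18.5. Without myonuclei in which non-muscle markers exceeded 1% of UMIs, the same 6, 2 and 5 genes passed 2-fold.

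Adult myonuclei were then split by the myosin heavy chain gene that gave at least 60% of their myosin UMIs, among nuclei with at least 5 such UMIs. The groups are named by that gene: 20 Myh7-dominant (the slow myosin), 201 Myh2-dominant, 453 Myh1-dominant and 2960 Myh4-dominant nuclei (fast myosins, Myh4 the fastest), with 753 in no group. The alpha-actinins ran in opposite directions across these groups. Actn2 had 3173, 2624, 1571 and 153 CPM in Myh7-, Myh2-, Myh1- and Myh4-dominant nuclei. Actn3 had 0 UMIs in the Myh7-dominant nuclei, where 3 UMIs would be 34.6 CPM, and 21.9, 105 and 562 CPM in the others. The calsarcins split likewise, with Myoz2 at 1131, 331, 25.5 and 1.35 CPM and Myoz1 at 23.1, 116, 186 and 419 CPM. The 1.35 CPM of Myoz2 in the 2960 Myh4-dominant nuclei came from 20 UMIs.

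Between Myh4- and Myh2-dominant adult nuclei, Actn3 was 25.7-fold higher (16.9 to 41.0) and Myoz1 3.63-fold higher (3.02 to 4.40) in the former. Actn2 was 17.2-fold lower (16.2 to 18.2) and Myoz2 245-fold lower (156 to 406). These 4 of the 9 genes passed 2-fold, 2 in each direction, where 10.9% of all genes were higher and 9.68% lower. The other 5 stayed within 2-fold: Ldb3 had 1878 and 1394 CPM in Myh2- and Myh4-dominant nuclei, Myoz3 72.7 and 113, Myot 1650 and 1085, Tcap 88.6 and 80.4, and Pdlim3 855 and 532. Both alpha-actinins and the calsarcins Myoz1 and Myoz2 thus differed past 2-fold between these adult groups, and the PDZ-LIM genes, myotilin, telethonin and Myoz3 did not.

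**Figure D3:**
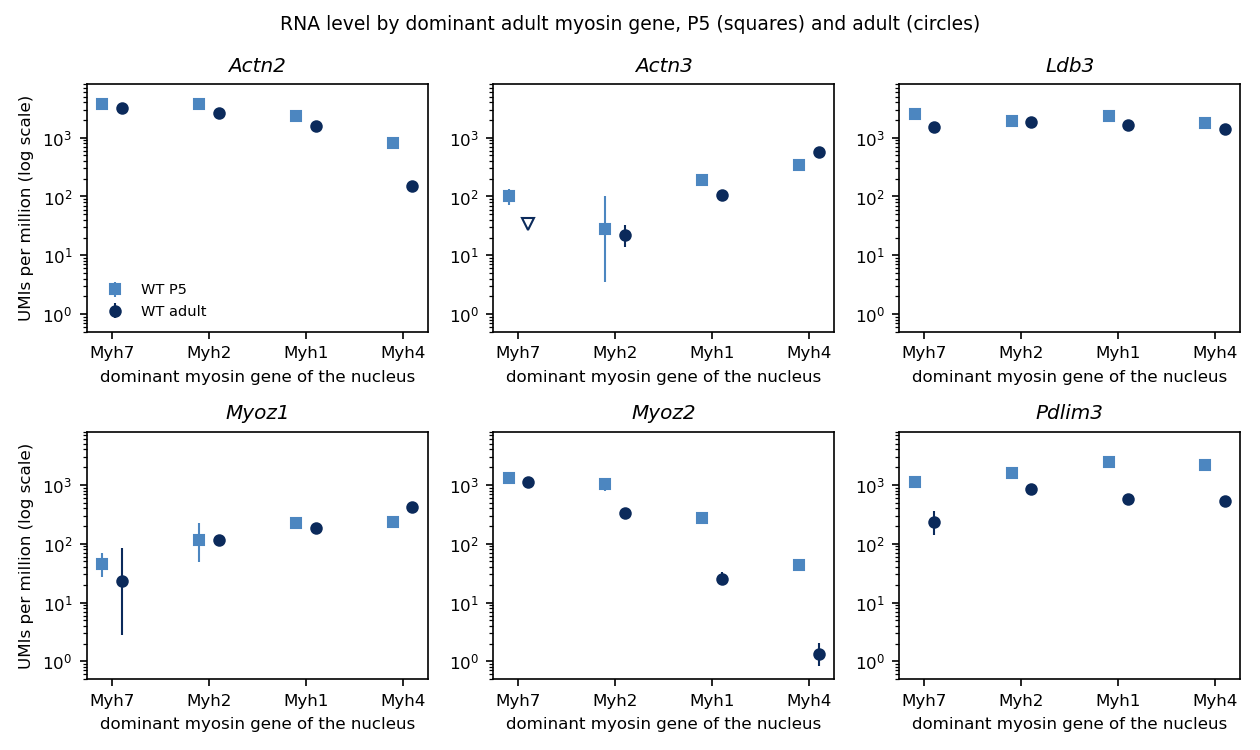
RNA level of 6 of the genes in CPM on a log axis, in P5 (squares) and adult (circles) myonuclei grouped by dominant myosin gene, with exact 95% Poisson intervals. The open triangle marks 0 UMIs and stands at the level of 3 UMIs. Adult Actn2 drops from 3173 in Myh7- to 153 in Myh4-dominant nuclei while Actn3 reaches 562, and Pdlim3 is lower in the adult than at P5 in Myh7-, Myh1- and Myh4-dominant nuclei.

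Actn2, Actn3 and Myoz2 were ordered between Myh7- and Myh4-dominant nuclei at P5 as in the adult. At P5, 734 nuclei were still Myh8-dominant (the neonatal myosin), 446 Myh4-dominant, 82 Myh1-dominant, 52 Myh7-dominant and 9 Myh2-dominant. Actn2 had 3658 CPM in the Myh7-dominant, 1821 in the Myh8-dominant and 804 in the Myh4-dominant P5 nuclei, and Actn3 had 100.2, 162 and 343 CPM. Myoz2 had 1314, 251 and 43.8 CPM in these groups. Myoz1 differed little between Myh8- and Myh4-dominant P5 nuclei, with 202 and 234 CPM, 1.16-fold higher in the latter (1.06 to 1.27). At E18.5 Actn3 had 102 CPM in the 926 Myh8-dominant nuclei and 7.96 CPM in Myh3-dominant nuclei (the embryonic myosin), a 12.8-fold difference (7.84 to 22.5). Myoz1 differed by 6.53-fold (5.19 to 8.32), Myot by 2.80-fold (2.54 to 3.09) and Myoz3, from 221 and 3 UMIs, by 19.8-fold (6.69 to 96.7) between the same E18.5 groups. With Actn3 these were the 4 of 9 genes past 2-fold, all higher in Myh8-dominant nuclei. The share of all genes between these E18.5 groups was not computed.

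Since the adult library held mostly Myh4-dominant nuclei, adult and P5 were also compared within that group, an alternative added after the data were seen. Actn2 was 5.26-fold lower in the adult (4.97 to 5.56), Myoz2 32.4-fold lower (20.3 to 54.6) and Pdlim3 4.06-fold lower (3.93 to 4.19). Tcap was 5.43-fold higher (4.09 to 7.36). Actn3, with 562 against 343 CPM, was 1.64-fold higher (1.54 to 1.74), under 2-fold. The count was 1 higher and 3 lower, with 10.0% of all genes higher and 21.6% lower. Within Myh1-dominant nuclei Myoz2 and Pdlim3 were again lower in the adult, by 10.6-fold (7.86 to 14.4) and 4.18-fold (3.889 to 4.501). Tcap and Myot were higher, by 3.44-fold (2.13 to 5.90) and 2.32-fold (2.11 to 2.55). The count was 2 higher and 2 lower, and the share of all genes was not computed for this group. Actn3 instead had 105 CPM in adult and 187 CPM in P5 Myh1-dominant nuclei, so its higher level in the adult library as a whole was not found in this group. Actn2 was 1.49-fold lower in adult Myh1-dominant nuclei (1.41 to 1.59), less than in the library as a whole.

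In the Cacna1s KO most of these genes were lower than in WT at E18.5. The largest difference was in Actn3, with 14.7 CPM in the KO against 68.6 in WT, 4.66-fold lower (3.94 to 5.55). Tcap had 6.49 against 17.1 CPM, 2.63-fold lower (2.005 to 3.496), and Myot 258 against 540 CPM, 2.09-fold lower (2.00 to 2.18). These 3 of 9 were at least 2-fold lower and none was higher, where 4.69% of all genes were lower and 4.78% higher. Myoz3 had 10.1 against 18.9 CPM (1.87-fold lower), Myoz1 104 against 173 (1.66-fold), Ldb3 1296 against 2072 (1.60-fold), Pdlim3 741 against 1129 (1.52-fold) and Actn2 1003 against 1460 (1.46-fold). Myoz2 had 299 CPM in the KO and 298 in WT, a ratio of 1.00 (0.957 to 1.05). The median log2 ratio of the 9 genes was -0.73, against -0.04 over all genes.

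In the KO, Actn3 made up 1.45% of alpha-actinin UMIs (1.23% to 1.69%), where the WT libraries had 4.49% at E18.5 and 1.22% at E14.5. The calsarcin shares of the KO were 72.3% Myoz2, 25.3% Myoz1 and 2.45% Myoz3, which lie between the E14.5 and E18.5 WT values for each gene. Tcap had 71 UMIs in the KO and 78 at E14.5, or 6.49 and 8.01 CPM, while Ldb3 and Myoz1, at 1296 and 104 CPM, stood above their E14.5 levels of 719 and 12.5 CPM. Actn2 and Pdlim3, at 1003 and 741 CPM in the KO, were below both WT stages, which had 1346 and 1460 CPM of Actn2 and 831 and 1129 CPM of Pdlim3.

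**Figure D4:**
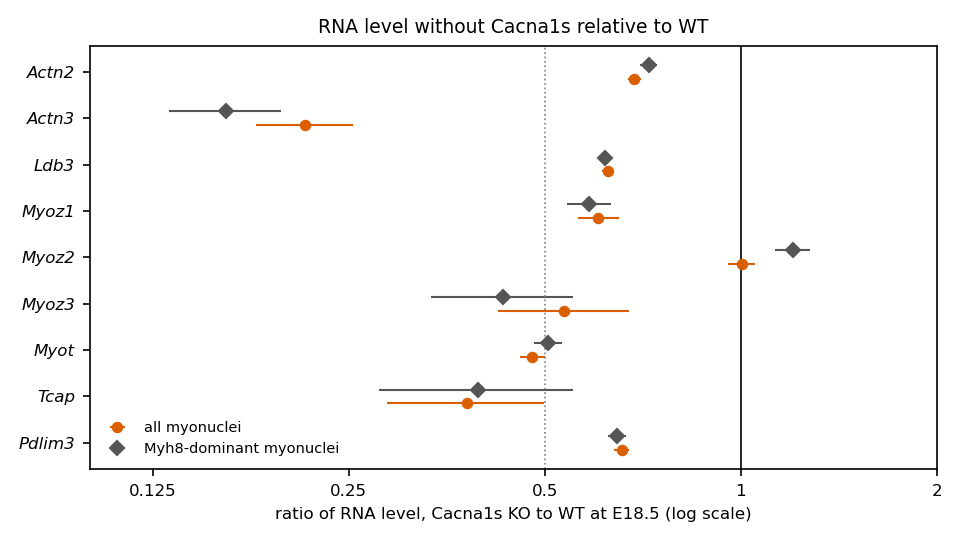
Ratio of RNA level in Cacna1s KO to WT myonuclei at E18.5 on a log axis, for all myonuclei (orange circles) and for Myh8-dominant myonuclei (grey diamonds), with exact 95% intervals. The solid line marks no difference and the dotted line 2-fold lower. Actn3 lies farthest to the left, and Myoz2 alone does not lie below 1.

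The lower levels were also present among Myh8-dominant nuclei and, for part of the genes, among Myh3-dominant nuclei. In Myh8-dominant nuclei, 642 in the KO and 926 in WT, Actn3 was 6.17-fold lower (5.08 to 7.56), Tcap 2.53-fold lower (1.81 to 3.59) and Myoz3 2.32-fold lower (1.81 to 2.99), for 3 lower and 0 higher where 5.08% of all genes were lower and 4.84% higher. Myot was 1.98-fold lower (1.88 to 2.08), and Myoz2 was 1.20-fold higher (1.13 to 1.28). In Myh3-dominant nuclei Actn3 had 11 UMIs in the KO and 16 in WT, too few to be held against 2-fold. Its ratio there was 0.829 (0.348 to 1.90), an interval that does not reach the 6.17-fold lower level of Myh8-dominant nuclei. Myoz1 was 3.15-fold lower (1.91 to 5.45) and Myot 2.58-fold lower (2.13 to 3.13) in Myh3-dominant nuclei. These were 2 of the 6 genes with enough UMIs there, and the share of all genes was not computed. Marker sums of other cell types in the myonuclei were also compared. The 7 Schwann cell markers, all detected in both libraries, summed to 2599 CPM in KO and 1801 CPM in WT myonuclei, of which Ncam1 gave 2482 and 1696 CPM. The 9 mesenchymal markers summed to 2956 and 3147 CPM, of which Dclk1 gave 2460 and 1903 CPM. The mesenchymal markers other than Dclk1 were thus lower in the KO than the sums show. With the myonuclei over 1% non-muscle marker UMIs left out, 879 KO and 1425 WT myonuclei remained, and the same 3 genes were at least 2-fold lower.

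The other genes of the Z-disc and of calcineurin signalling give the setting. Of 22 further Z-disc or Z-disc linked genes, 7 were at least 2-fold higher and 2 lower at E18.5 than at E14.5, 2 higher and 5 lower from E18.5 to P5, and 2 higher and 6 lower from P5 to adult, when 21 could be tested. Over all genes these shares were 15.6% and 8.93%, 6.98% and 2441 of 13203, and 8.13% and 30.4%, and several counts of the list lie near them. The scaffold gene Sorbs2 was among those higher in the adult than at P5 (2.09-fold). Csrp3, which encodes muscle LIM protein, was 9.85-fold lower in the adult than at P5. In the KO, 1 of the 22 was higher, Nebl (2.58-fold), and 5 were lower: the LIM genes Fhl1 (3.92-fold), Pdlim1 (3.08-fold), Pdlim7 (2.54-fold) and Csrp3 (2.46-fold), and Nrap (3.35-fold), a scaffold of myofibril assembly. Of 10 genes for calcineurin subunits, NFAT factors and regulators, 2, 3 and 3 were at least 2-fold higher at the successive WT steps, with 0, 0 and 1 lower, and in the KO 0 were higher and 1 lower, beside the same shares and, for the KO, 4.78% and 4.69%. Rcan2, an inhibitor of calcineurin, had 5.24, 30.3, 158 and 419 CPM across the WT stages.

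Peaks of open chromatin, called in each library on its own, were read within 5 kb of the start-site row of each gene. There were 14, 20, 17, 23 and 18 such peaks per library, which joined into 27 regions, 9 of them called in all 5 libraries. The start-site row itself was covered in 4, 6, 6, 8 and 7 of the 9 genes, where the share over all genes was 47.8%, 50.3%, 47.5%, 47.6% and 47.0%. Actn2, Ldb3 and Pdlim3 had a start-site peak in all 5 libraries, 3 of 9 against 42.2% of all 32285 genes. Actn3 had none in any library: its nearest region, centred at -668 bases from it, also holds the start site of Zdhhc24, and the region inside its intron lies 1298 bases downstream. Myoz1 had a start-site peak in the adult alone, at 28.1 ATAC CPM, which is ATAC counts scaled to all counts in peaks of the myonuclei and is the unit used for all regions below.

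Start-site accessibility of Actn2, Ldb3 and Pdlim3 differed little across the libraries. The Actn2 start site had 40.5, 43.0, 49.3, 41.3 and 43.1 ATAC CPM, while its RNA was 3.26-fold lower in the adult than at P5. Ldb3 had 46.9, 46.8, 61.0, 59.4 and 53.6 ATAC CPM, and Pdlim3 31.8, 40.3, 46.5, 46.7 and 35.9. The adult Pdlim3 value was 1.01 of P5 (0.878 to 1.15), where its RNA was 3.81-fold lower. No start-site region called in both libraries passed 2-fold between E14.5 and E18.5, where 4.85% of all regions were higher and 11.0% lower, or between E18.5 and P5, where 8.19% were higher and 3.2% lower.

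The Tcap start site differed more. Its start-site region, not called at E14.5, had 32.7, 49.7 and 110.6 ATAC CPM at E18.5, P5 and adult, and the adult value was 2.23-fold that of P5 (1.97 to 2.52), the 1 start-site region past 2-fold where 2.83% of all regions were higher and 24.5% lower. The Myot start site had 12.3, 19.4 and 28.8 ATAC CPM at the same 3 stages, and the region 3884 bases into the Myot gene had 12.95, 16.7, 25.6 and 44.1 ATAC CPM from E14.5 on. These Myot regions and the Tcap start site were highest in the adult, as their RNA was. Another Myot intron region, 5108 bases from the start site, had 10.3 ATAC CPM at E14.5, 5.12 at E18.5 and 9.29 in the KO and was not called at P5 or in the adult.

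Both alpha-actinin genes had an intron region that differed between WT stages. The Actn2 intron region (chr13:12337510-12338468), printed in part above, had 29.9, 27.2, 32.4 and 14.6 ATAC CPM at the WT stages and was 2.22-fold lower in the adult than at P5 (1.84 to 2.67). Scaled to the counts in regions shared by all 5 libraries, that log2 ratio was -0.98, just under 2-fold. The Actn3 intron region had 29.4, 26.7, 53.0 and 64.3 ATAC CPM, 1.99-fold higher at P5 than at E18.5 (1.66 to 2.39). Between P5 and adult it had 71.7 and 76.8 ATAC CPM within Myh4-dominant nuclei and 62.1 and 38.7 within Myh1-dominant nuclei. A Myoz3 region centred at -3454 bases from the start site, first called at E18.5, had 18.4, 44.9 and 46.1 ATAC CPM at E18.5, P5 and adult, 2.43-fold higher at P5 than at E18.5 (1.97 to 3.02). An Ldb3 region at -3226 bases held the start site of Gm49012 and was called at widths that differed between libraries, so its values are not compared.

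In adult myonuclei grouped by myosin, several regions at Actn2, Actn3, Myoz1 and Myoz2 differed between Myh4- and Myh2-dominant nuclei in the direction of the RNA. The Actn2 intron region had 35.4, 45.8 and 7.35 ATAC CPM in Myh2-, Myh1- and Myh4-dominant nuclei, 6.24-fold lower in Myh4- than in Myh1-dominant nuclei (4.67 to 8.35). Its value was higher in Myh1- than in Myh2-dominant nuclei, unlike Actn2 RNA, but the intervals overlapped (37.5 to 55.4 and 24.3 to 49.9). The Actn2 start site had 81.8, 54.2 and 35.2 ATAC CPM, a smaller range. The Actn3 intron region had 10.9, 38.7 and 76.8 ATAC CPM, 7.04-fold higher in Myh4- than in Myh2-dominant nuclei (3.81 to 14.7). The Myoz2 start site had 27.8, 7.53 and 0.776 ATAC CPM, 35.8-fold lower in Myh4- than in Myh2-dominant nuclei (16.5 to 85.2). The Myoz1 start site had 11.4, 23.0 and 29.9 ATAC CPM, but the region upstream of Myoz1 had 35.4, 40.5 and 39.2. Pdlim3, whose RNA was within 2-fold between these groups, had 48.5, 50.1 and 47.0 ATAC CPM at its start site. Tcap and Myot RNA was also within 2-fold. The Tcap start site had 145, 113 and 109 ATAC CPM, and the Myot intron region at 3884 bases 67.1, 58.7 and 41.6. The share of all regions that differed between these groups was not computed.

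**Figure D5:**
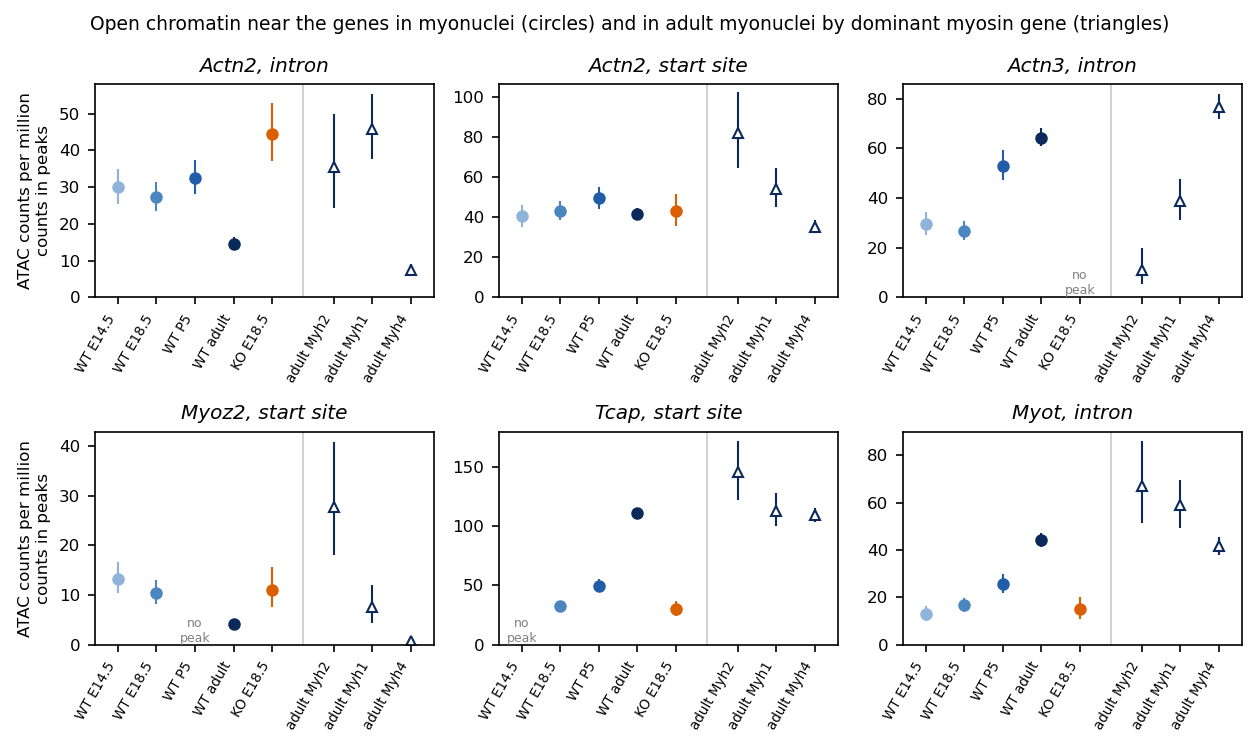
ATAC CPM for 6 regions in the myonuclei of each library (circles) and in adult myonuclei by dominant myosin gene (open triangles), with 95% Poisson intervals on fragments. "No peak" marks a library in which the region was not called. The Actn2 intron and the Myoz2 start site are lowest in adult Myh4-dominant nuclei, at 7.35 and 0.776, and the Actn3 intron is highest there, at 76.8.

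Start-site regions of Actn2, Ldb3, Myoz2, Myot, Tcap and Pdlim3 were called in both E18.5 libraries, and none of these 6 differed between KO and WT by 2-fold, where 4.59% of all regions were higher and 3.65% lower. The Tcap start site had 29.8 ATAC CPM in the KO and 32.7 in WT, a ratio of 0.911 (0.703 to 1.17), and the Myot start site 16.7 and 12.3, a ratio of 1.36 (0.933 to 1.95). The Actn2 intron region was higher in the KO, with 44.5 against 27.2 ATAC CPM (1.63-fold, 1.30 to 2.05). Counted per nucleus, its log2 ratio of KO to WT was 0.02. The Actn3 intron region was a called peak at all 4 WT stages but in no KO call set, and KO myonuclei held 5705012 ATAC counts in peaks, the fewest of the 5 libraries, against 14651963 in WT at E18.5. The part of depth in this missing call was not tested. The Actn3 upstream region, called in both, had 51.7 and 52.7 ATAC CPM. The Myoz3 start site, in contrast, was called in the KO, at 16.0 ATAC CPM, but not in WT at E18.5. The Myoz1 exon region had 40.1 ATAC CPM in the KO and 29.8 in WT, 1.35-fold higher (1.07 to 1.70). Counted per nucleus, its log2 ratio of KO to WT was -0.26, so the direction depends on the scaling. RNA of Myoz3 and Myoz1 was lower in the KO.

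Most of the regions were more open in myonuclei than in other nuclei. By at least 2-fold, 9 of 14, 16 of 19, 15 of 17, 20 of 22 and 13 of 17 regions were, in library order. The share of all regions at least 2-fold higher in myonuclei than in the other nuclei was 22.1%, 18.1%, 18.8%, 29.9% and 17.9%. The Ldb3 start site had 46.8 ATAC CPM in myonuclei and 6.76 in the other nuclei at E18.5, and the Tcap start site 32.7 and 1.75. Regions at -4634 bases from the Myoz1 and -4458 bases from the Myoz3 start site were open in both kinds of nuclei, with 33.6 and 46.0 ATAC CPM at E18.5 for the former and 45.0 and 42.4 for the latter.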

How the data were processed

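RNA and ATAC counts were measured in 5 Multiome libraries. The authors deposited UMI counts per gene and ATAC counts per peak, made with Cell Ranger ARC 2.0.0 on mm10 (GRCm38, Ensembl 93) with intronic reads included. Before loading, PCM1+ and PCM1- nuclei had been sorted and mixed in equal volumes, so shares of myonuclei are not tissue shares. Peaks were called per library. How reads of several genes were counted, and which Cacna1s exons are deleted, are not given in the sources used here.

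Nuclei with 400 to 25000 UMIs, under 10% mitochondrial UMIs and under 70000 ATAC counts were kept, 21154 of 22301. These totals differ from those in the study's methods, which for the KO exceed the barcodes deposited. No doublet caller was run, and nuclei over 1% non-muscle marker UMIs were left out as an alternative. Levels are sums over nuclei with exact Poisson intervals, and ratios have exact conditional binomial intervals. Genes whose sums added up to 50 or more UMIs were held against 2-fold, and a count of 0 was set to 3 counts. ATAC counts were divided by 2 for intervals, since most are even. Peaks of different libraries were joined at 1 base of overlap. Gene spans are from GENCODE vM21. Promoters were found for 4 of the 9 genes in the RefSeq table. Near genes are the 3 with the smallest Euclidean distance of centred log2(CPM + 5) over the 5 libraries, among genes with at least 100 UMIs. Some items are not reported here. The genes, lists and comparisons were chosen with earlier results of these data known. Comparisons within 1 myosin group across libraries, and of ATAC between myosin groups, were added after the data were seen. The ratio step was tested on simulated counts. Python 3.11.15, numpy 2.4.6, scipy 1.17.1, pandas 2.3.3, scikit-learn 1.9.0 and leidenalg 0.10.2 (clusters of the other nuclei) were used.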

Additional observations from a re-analysis of the deposited data

How the results depend on the processing

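No paired analysis was possible because each group is 1 library, and leaving out a replicate was not possible for the same reason. In all, 478 alternative values were computed. No value past 2-fold changed direction. Of 324 alternative log2 ratios between libraries 14 changed sign and 7 crossed 2-fold, of 36 between myosin groups 1 and 0, and of 42 for start-site regions 14 and 1. With 3-fold in place of 2-fold, 3 genes differed between E18.5 and E14.5 and 1 in the KO, and with 1.5-fold 7 differed in the KO. A 4% cut in every library left 1 gene, Myoz3, past 2-fold between P5 and E18.5. Counted per nucleus, 1 start-site region, Pdlim3, was past 2-fold between E18.5 and E14.5. Peaks over the start-site row alone numbered 4, 6, 6, 8 and 7 per library, and within the gene body and 5 kb on each side, added after the data were seen, 27, 35, 32, 49 and 29. Median-ratio size factors shifted the median log2 ratio of all genes from 0.16 to -0.03 between E18.5 and E14.5, from -0.33 to 0.01 between P5 and E18.5 and from -0.34 to 0.29 between adult and P5. All-gene splits became 12.1% higher and 11.4% lower, 11.3% and 10.3%, and 21.1% and 21.2%, and the 9 genes counted 5, 3 and 4 higher and 0, 0 and 3 lower. Depth limits Myoz3 at E14.5 (6 UMIs) and, in Myh3-dominant nuclei of KO and WT, Myoz3 (0 and 3 UMIs), Tcap (6 and 18) and Actn3 (11 and 16).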

Other observations

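Ldb3 and Pdlim3 were also read in nuclei called smooth muscle or pericyte-like from their markers. Ldb3 had 32.7, 159, 183, 119 and 109 CPM in these nuclei at E14.5, E18.5, P5, adult and KO, from 41, 67, 69, 29 and 62 nuclei, beside 56.2, 55.4, 24.4, 103 and 68.7 CPM over all nuclei below the myonuclear cut. Pdlim3 had 16.4, 62.0, 139, 515 and 33.8 CPM, beside 67.1, 35.1, 36.5, 85.1 and 59.0 CPM. The comparison levels include muscle nuclei below the cut. At E14.5 both genes, and in the KO Pdlim3, were lower in the smooth muscle or pericyte-like nuclei than over all nuclei below the cut. The E14.5 values rest on 6 and 3 UMIs and the adult values on 6 and 26. In myoblast-like nuclei, 111, 126 and 176 at E14.5, E18.5 and KO, Actn2 had 135, 197 and 160 CPM and Ldb3 24.0, 210 and 184 CPM, and Pdlim3 had 4.36, 35.8 and 6.02 CPM.

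The genes whose profile over the 5 libraries lay nearest to each of the 9 were found among 11957 candidates. Nearest to Actn3 were Synm, at 0.555, which encodes an intermediate filament protein of muscle, Plcd4 and Abcb4, and nearest to Myoz1 were Ckm, the muscle creatine kinase, at 0.316, and Nos1, a nitric oxide synthase. Myoz3 had Filip1l, Mreg and Ddo near it, Myot had Met, Mapre2 and Calm2, and Tcap had Coq10b, Eepd1 and Ttll7. Actn2 was nearest to Gucy1b1, Ppfia2 and Mxra7, Pdlim3 to Bche, Frzb and Fam189a2, Ldb3 to Fgfr1op, Jsrp1 and Prnp, and Myoz2 to Pcdh9, Cntln and Ehd4. Synm had 1.13, 20.8, 66.4 and 125.3 CPM from E14.5 to adult and 3.84 CPM in the KO, and Ckm 21.8, 359, 350 and 701 CPM and 189 CPM in the KO. The points share libraries and depth, and 5 points fix a profile only loosely.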
